A study of Mus musculus with 16 samples.

Results

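Transcripts of 10 genes of the aggrecan, versican and hyaluronan axis were followed in the mouse aorta. They were taken by gene symbol from a table of 54532 genes: Acan, Vcan, Hapln1, Hapln3, Has1, Has2, Has3, Cd44, Hyal2 and Tnfaip6. RNA came from the aortas of male Apoe-/- mice of strain C57BL/6j, aged 8 to 12 weeks, after 7 days with an osmotic pump. The library names carry the prefix WT in both groups, which the labels do not explain beside Apoe-/-. Both groups lacked apolipoprotein E, a loss that raises plasma cholesterol. The 8 control libraries were from mice given saline, and the other 8 libraries were from mice infused with 1000 ng per kg per min of the vasoconstrictor hormone angiotensin II (Ang II). The adventitia, the outer coat of the vessel, had been removed before RNA was extracted. The study is about how smooth muscle cells of the aortic wall respond in aneurysm and dissection, and the comparison addresses what Ang II infusion does to transcript levels. The labels do not tie each sample to a mouse, so p-values measure only the spread between these samples, which may be technical.

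Aggrecan (Acan) and versican (Vcan) are large chondroitin sulfate proteoglycans of the hyalectan family, which bind the long sugar chain hyaluronan through their N-terminal domain. Link proteins of the Hapln family lock that bond, hyaluronan synthases (Has1, Has2, Has3) spin the chain out of the cell at the plasma membrane, the receptor Cd44 holds it at the cell surface, Tnfaip6 (also called TSG-6) moves protein heavy chains onto it, and Hyal2 cuts it. Versican is known as the main hyalectan of the artery wall and aggrecan as that of cartilage, and the aggregates they form with hyaluronan bind water and swell.

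Expression is given as FPKM, the fragments of a gene scaled by transcript length and by the counted reads of the library. The 8 saline libraries held 14606864 to 17590088 counted reads each, and the 8 Ang II libraries 15779125 to 19988730. Saline 2, Saline 7 and Saline 8 stood apart from the other saline libraries. On the first principal component, which held 46.9% of the variance, they lay at -47.5, -67.6 and -109, and the other saline libraries lay between -9.47 and 6.31. Calls that were lost or gained without them are named beside the results. Of the smooth muscle markers, 3 of 6 tested genes fell (Myh11, Smtn and Lmod1) and 0 rose, beside 24.9% and 9.54% of all tested genes. The summed level of the list was 8717 to 14984 FPKM with saline and 6184 to 10573 FPKM with Ang II. In bulk tissue, fewer cells of a type and less RNA per cell cannot be told apart.

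Of the 10 genes, 8 passed the filter of a mean of at least 0.5 FPKM over all 16 libraries, and Has1 and Has2 did not. With limma and Benjamini-Hochberg adjustment over 15007 tested genes at a threshold of 0.05, 3 of the 8 rose with Ang II (Acan, Cd44 and Tnfaip6). The share of all tested genes that rose was 9.54%. Has3 alone of the 8 fell, against 24.9% of all tested genes, and 34.5% of all changed in either direction. Vcan, Hapln1, Hapln3 and Hyal2 did not pass the threshold. The median log2 fold change of the 8 was -0.01, and that of all tested genes was -0.12. Scaling the libraries by median ratios moved the median of all genes to -0.01, so a decrease of that size lies within the shift between scalings. Acan and Cd44 had no overlap between groups, with all Ang II values higher, which held for 2.74% of all tested genes, and 0 of the 8 were lower in this sense, against 5.62% of all.

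**Figure D1:**
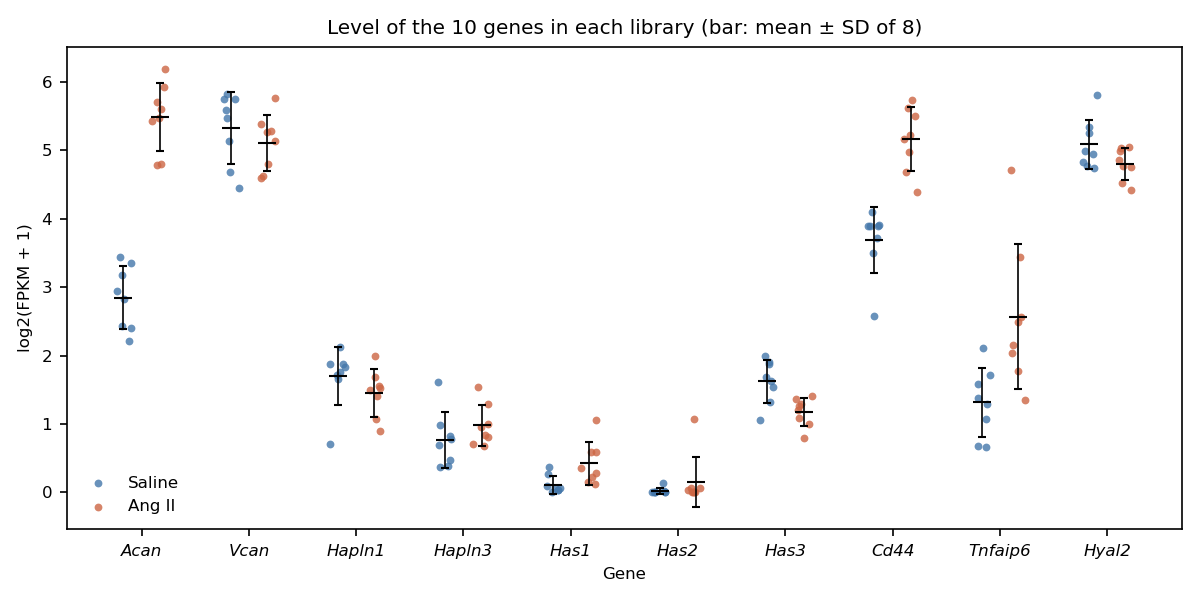
Level of each of the 10 genes, as log2(FPKM + 1), in the 8 saline libraries (blue) and the 8 Ang II libraries (orange); each point is a library and black bars are the mean ± SD. The groups of Acan and Cd44 are separate, those of Vcan and Hyal2 lie at like heights, and Has1 and Has2 lie lowest, with Ang II 1 their highest library.

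Promoter windows of RefSeq (GRCm38.p6, from 250 bases before to 50 bases after the start that RefSeq uses) matched 8 of the 10 genes, all but Has2 and Has3. That start can differ from the start in the gene coordinates given below. The Acan window ends at 79053275, before the Acan start of 79053483 in those coordinates. Motif positions are counted from the RefSeq start. The windows of the 3 genes that rose are shown beside that of Vcan, the hyalectan that did not pass the threshold, so that the starts of both hyalectan genes can be read together. Each is 300 bases, 5′ to 3′ on the strand of the gene. Capitals mark every match, on either strand, to the motifs TATAAA (the TATA box), GGGCGG (the GC box), TGACTCA (an AP-1 motif, which reads TGAGTCA on the other strand), TGACGTCA (a CRE motif), GGAATG (a TEAD motif), CACGTG (an E-box), the CArG box and the NF-kappaB motif.
Acan, chr7:79052976-79053275, plus strand: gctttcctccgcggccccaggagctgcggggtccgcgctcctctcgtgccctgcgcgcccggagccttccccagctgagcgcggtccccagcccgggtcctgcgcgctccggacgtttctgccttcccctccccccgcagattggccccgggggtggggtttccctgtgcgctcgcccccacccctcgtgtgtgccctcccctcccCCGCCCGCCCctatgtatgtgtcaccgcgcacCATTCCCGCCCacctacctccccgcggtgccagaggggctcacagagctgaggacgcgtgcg
Vcan, chr13:89742463-89742762, minus strand: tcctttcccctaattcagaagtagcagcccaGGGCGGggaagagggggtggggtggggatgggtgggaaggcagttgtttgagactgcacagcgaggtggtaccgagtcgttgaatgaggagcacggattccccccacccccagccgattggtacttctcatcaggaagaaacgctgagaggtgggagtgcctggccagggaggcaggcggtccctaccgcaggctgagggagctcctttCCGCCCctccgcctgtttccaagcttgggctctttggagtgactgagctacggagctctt
Cd44, chr2:102901616-102901915, minus strand: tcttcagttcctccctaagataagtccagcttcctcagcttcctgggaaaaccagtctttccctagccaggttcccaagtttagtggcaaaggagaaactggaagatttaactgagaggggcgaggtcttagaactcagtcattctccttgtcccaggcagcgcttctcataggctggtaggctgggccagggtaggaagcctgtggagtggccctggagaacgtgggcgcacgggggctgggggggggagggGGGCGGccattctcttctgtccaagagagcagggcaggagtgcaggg
Tnfaip6, chr2:52037863-52038162, plus strand: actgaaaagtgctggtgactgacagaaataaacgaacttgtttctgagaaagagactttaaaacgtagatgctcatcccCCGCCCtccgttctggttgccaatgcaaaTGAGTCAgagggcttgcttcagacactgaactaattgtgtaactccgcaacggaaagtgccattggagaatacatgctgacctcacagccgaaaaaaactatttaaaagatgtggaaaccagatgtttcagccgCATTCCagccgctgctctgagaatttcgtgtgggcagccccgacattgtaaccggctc

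The Acan window was 74% G and C, against 61% for Vcan, 58% for Cd44, 47% for Tnfaip6 and a median of 52.7% over the 32851 promoter windows. GGGCGG stood in it 3 times, on the minus strand, at -44, -40 and -7 from the RefSeq start. GGAATG stood in it once at -12, where it shares a base with the nearest GC box. The first 2 GC boxes overlap as well. Tnfaip6 was the 1 member with the TGACTCA motif, at -142, a motif held by 5.2% of all windows. It also held GGGCGG at -171 and GGAATG at -8. Cd44 held GGGCGG at position 4, with the start counted as 1, and Vcan held it at -219 and -10. The GC box was present in 5 of the 8 windows and in 35.7% of all windows, and GGAATG in 3 of the 8 and in 14.7% of all. Has1, whose window is not printed, held TGACGTCA at -83, found in 1.79% of windows. CACGTG, the CArG box and the NF-kappaB motif were in 0 of the 8 windows, against 7.15%, 1.63% and 0.155% of all. These matches describe letters in a short window and carry no measure of binding.

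Among the proteoglycans, Acan rose and Vcan did not pass the test. Acan (ENSMUSG00000030607, chr7:79053483-79115099, plus strand, GRCm38) had a lowest, median and highest level of 3.61, 6.39 and 9.84 FPKM in the saline libraries. In the Ang II libraries these were 26.6, 45.6 and 72.1 FPKM. The lowest Ang II libraries, 5 and 1, were still above the highest saline library, so the groups did not overlap. The mean went from 6.52 ± 2.36 FPKM (SD, n = 8) with saline to 46.2 ± 15.4 FPKM (SD, n = 8) with Ang II, a ratio of 7.08. The limma log2 fold change of FPKM + 1 was 2.64 (SE 0.22, adjusted p = 2.89e-07), the 13th largest of the 15007 tested genes. The counts behind it were 289 to 861 reads per saline library and 2104 to 6724 reads per Ang II library. It passed the threshold under all 27 alternatives that were run, with values from 2.34 to 2.83.

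Vcan (ENSMUSG00000021614, chr13:89655312-89742509, minus strand) ran over 20.8, 45.4 and 55.9 FPKM (lowest, median and highest) with saline and over 23.2, 35.9 and 53.7 FPKM with Ang II. The ranges overlapped almost wholly. Its mean was 41.5 ± 13.5 FPKM (SD, n = 8) with saline and 34.8 ± 10.2 FPKM (SD, n = 8) with Ang II. The log2 fold change was -0.22 (SE 0.22, limma adjusted p = 0.448). The 2 lowest saline libraries were Saline 8 and Saline 7, at 20.8 and 24.6 FPKM, which are among the 3 that stood apart. Without them the log2 fold change was -0.48 (limma adjusted p = 0.0432), without Saline 2 as well it was -0.57 (0.0194), and with sample weights it was -0.57 (0.00829). Whether Vcan passes the threshold as lower therefore turned on these libraries.

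The balance of the 2 hyalectans was compared within each library, where the scale of the library cancels except through the pseudocount. Linear Acan to Vcan ratios were 0.116 to 0.211 in the saline libraries and 0.781 to 2.22 in the Ang II libraries. Acan stood below Vcan in every saline library and above it in 7 of the 8 Ang II libraries, the exception being Ang II 1. The log2 ratio of FPKM + 1 went from -2.49 ± 0.312 to 0.38 ± 0.483 (SD, n = 8 each), a difference of 2.86 (exact two-sided permutation test, p = 0.000155, the smallest that the permutations can give; adjusted over 6 such tests 0.000932). It lay higher in 8 of 8 Ang II libraries than in any saline library. The size of the gap between the genes depends on the length used: the FPKM of Vcan rest on 3885 bases, the mean of its 9 transcripts, while its exons together span 14462 bases. Scaled to that whole span, Vcan was at 11.1 with saline and 9.34 with Ang II, and Acan, scaled likewise to 7469 bases, was at 4.34 and 30.8, the same order of group means as by FPKM. A linear ratio of the 2 genes changes by the same factor on either length.

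**Figure D2:**
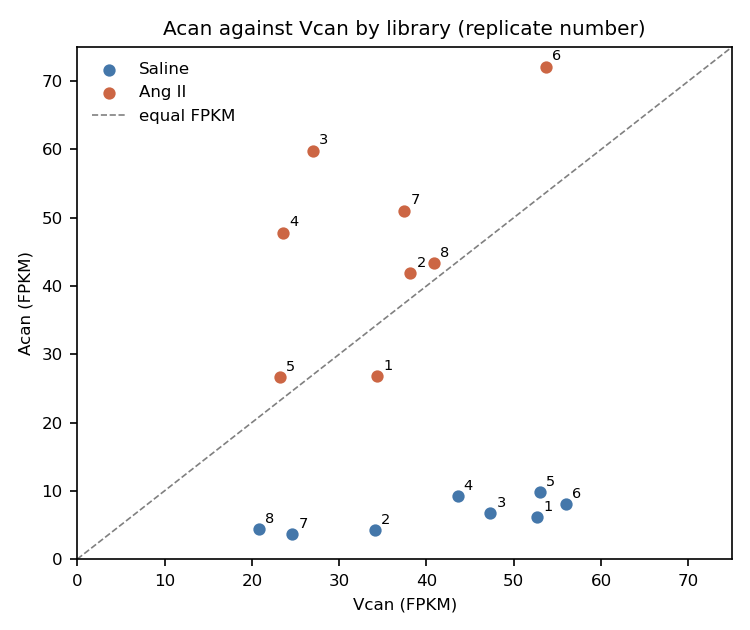
FPKM of Acan (vertical axis) against FPKM of Vcan (horizontal axis) in each library, numbered by replicate, saline in blue and Ang II in orange; the dashed line marks equal FPKM. All 8 saline libraries lie far under the line, and the Ang II libraries lie on both sides of it with Acan between 26.6 and 72.1 FPKM.

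Neither link protein gene passed the test. Hapln1 (chr13:89539796-89611652, plus strand) had 0.631, 2.48 and 3.36 FPKM (lowest, median and highest) with saline and 0.854, 1.85 and 2.99 FPKM with Ang II. Its ranges overlapped, with Saline 8 the lowest of all 16 libraries, and the log2 fold change was -0.24 (SE 0.19, limma adjusted p = 0.329). Hapln3 (chr7:79115102-79131018, minus strand) had 0.299, 0.669 and 2.07 FPKM with saline and 0.591, 0.862 and 1.92 FPKM with Ang II. Here Saline 8 was the highest of all 16 libraries. Its log2 fold change was 0.21 (SE 0.18, limma adjusted p = 0.375), on only 8 to 51 reads per library. It passed the threshold as higher with sample weights (0.39, limma adjusted p = 0.0366) and without Saline 2, Saline 7 and Saline 8 (0.43, 0.0494).

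Within the Ang II group, libraries with more Hapln1 had less Hapln3. Pearson's r of log2(FPKM + 1) over the 8 libraries was -0.944 (exact permutation p = 0.000298, adjusted over 56 pairs 0.0167), and Spearman's rho was -0.952 (exact permutation p = 0.00114, adjusted 0.0639). Without Ang II 5 and Ang II 6, the 2 libraries farthest from the median of Hapln1, r was -0.981. In the saline group r was -0.829 (exact permutation p = 0.0442, adjusted 0.19) and rho was -0.69 (0.0694, adjusted 0.278), and r was -0.507 without Saline 1 and Saline 8. This was the 1 pair of 56 whose r passed after adjustment, and its rho did not. Without adjustment 13 pairs passed by r, among them Vcan with Hapln1 in the Ang II group (r 0.833, exact permutation p = 0.0102, adjusted 0.14; rho 0.857, 0.0107, adjusted 0.174; r 0.962 without Ang II 4 and Ang II 5).

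Each of the 2 link protein genes lies tail to tail with a proteoglycan gene. Acan and Hapln3 end 2 bases apart on chromosome 7, and their annotated exons do not overlap. Hapln1 and Vcan end 43659 bases apart on chromosome 13. Acan rose while Hapln3 next to it did not pass the threshold, and whether the counting used strand is not given in the sources used here. On the far side of Hapln3, 2749 bases away, lies Mfge8, which encodes a secreted glycoprotein abundant in the aorta. Mfge8 rose from 1105 ± 204 to 1777 ± 313 FPKM (SD, n = 8 each; log2 fold change 0.69, limma adjusted p = 0.00134). Isg20 on the other side of Acan (log2 fold change 0.10, limma adjusted p = 0.727) and Xrcc4 beside Vcan (0.11, 0.718) did not pass, and Edil3 beside Hapln1 was under the filter.

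Hyaluronan synthase transcripts were low in both groups, and the isoforms differed. Has3 (chr8:106870242-106884566, plus strand) was the most abundant synthase by FPKM in every library but Ang II 1, with 1.07, 2.16 and 2.98 FPKM (lowest, median and highest) with saline and 0.726, 1.35 and 1.66 FPKM with Ang II. It fell, with overlapping ranges and 2 of 8 Ang II libraries under every saline library. The mean was 2.14 ± 0.649 FPKM (SD, n = 8) against 1.28 ± 0.311 FPKM (SD, n = 8), and the log2 fold change was -0.45 (SE 0.14, limma adjusted p = 0.0211). The call was lost with median ratio scaling (-0.36, limma adjusted p = 0.0625), with no filter on low genes (-0.45, 0.0567) and without Saline 2, Saline 7 and Saline 8 (-0.36, 0.088). Its exons overlap those of Chtf8 over 5.52% of their length.

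Has1 (chr17:17843323-17855205, minus strand) was near the limit of detection, with 0 to 12 reads per saline library and 5 to 48 reads per Ang II library. In FPKM the lowest, median and highest were 0, 0.0416 and 0.292 with saline and 0.0888, 0.244 and 1.08 with Ang II. In 3 of the 8 Ang II libraries (1, 3 and 6) it was above every saline library, and the other 5 lay within the saline range. Since it lay under the filter, an exact two-sided permutation test on log2(FPKM + 1) was added after its level had been seen: the difference was 0.31 (p = 0.0129, adjusted over 6 tests 0.0387). Without Saline 7 and Saline 8 it was 0.29 (exact permutation p = 0.0513).

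Has2 (chr15:56665627-56694539, minus strand) is the synthase best known from the developing heart and vessels. It had 0 reads in 6 of 8 saline libraries and in 4 of 8 Ang II libraries. Where it is listed at 0, the limit that 3 reads set was 0.0354 to 0.0485 FPKM over the libraries. Saline 1 had 7 reads, Saline 3 had 1, and 3 Ang II libraries had 2 or 3. Ang II 1 alone stood out, with 73 reads and 1.09 FPKM. The difference between groups was within this spread (exact two-sided permutation test of log2(FPKM + 1), p = 0.485, adjusted over 6 tests 0.622). Its exons overlap those of the antisense gene Has2os over 4.30% of their length.

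Summed over the 3 synthases, the level was 1.19 to 3.20 FPKM with saline and 1.21 to 3.17 FPKM with Ang II, so the ranges overlapped. On the log2 scale of the sum + 1 the difference was -0.21 (exact two-sided permutation test, p = 0.187, adjusted over 6 tests 0.374). Has3 made up 95.6% ± 3.90 of the sum with saline (SD, n = 8) and 75.7% ± 21.7 with Ang II (SD, n = 8), and Has1 3.28% ± 3.18 and 19.1% ± 12.8. The Has2 share was 1.08% ± 2.87 and 5.18% ± 11.9 (exact two-sided permutation test, p = 0.518, adjusted 0.622), and without Ang II 1 the difference of 4.10 percentage points became -0.0755. Ang II 1 was the 1 library in which Has2, at 34.4% of the sum, and Has1, at 34.0%, both exceeded Has3, at 31.5%.

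**Figure D3:**
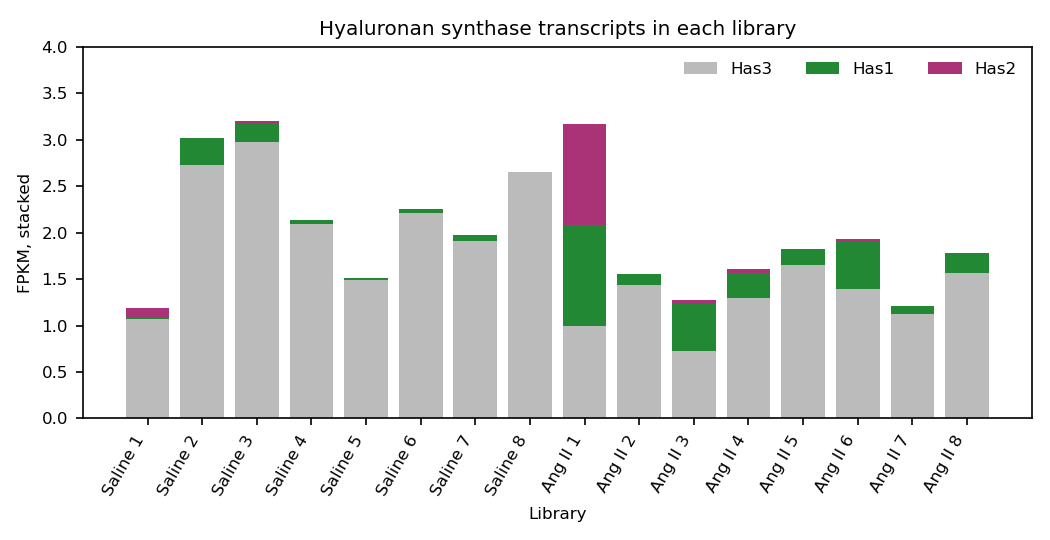
FPKM of Has3 (grey), Has1 (green) and Has2 (purple), stacked, in each of the 16 libraries. The bars are nearly all Has3 in the saline libraries, Has1 is most visible in Ang II 1, 3 and 6, and Has2 is visible in Ang II 1.

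Cd44, the main surface receptor for hyaluronan, rose with Ang II. Cd44 (ENSMUSG00000005087, chr2:102811141-102901665, minus strand) had 5.00, 13.8 and 16.2 FPKM (lowest, median and highest) with saline and 20.01, 35.7 and 52.5 FPKM with Ang II. Saline 8 was far under the other saline libraries, which lay between 10.3 and 16.2 FPKM, and no Ang II library overlapped the saline range. The mean rose from 12.4 ± 3.43 to 36.4 ± 11.3 FPKM (SD, n = 8 each), a log2 fold change of 1.48 (SE 0.22, limma adjusted p = 9.35e-05). It passed under all 27 alternatives, with values from 1.30 to 1.61. The values are per gene and do not resolve the splice variants of Cd44.

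Tnfaip6 rose with a wide spread. Tnfaip6 (ENSMUSG00000053475, chr2:52038009-52056686, plus strand) had 0.589, 1.53 and 3.33 FPKM with saline and 1.56, 4.03 and 25.1 FPKM with Ang II. In 5 of the 8 Ang II libraries it exceeded the highest saline value, and the other 3 (2, 6 and 8) lay within the saline range. Ang II 5, at 25.1 FPKM, and Ang II 1, at 9.90 FPKM, carried much of the mean of 6.89 ± 7.79 FPKM (SD, n = 8), against 1.62 ± 0.919 FPKM with saline (SD, n = 8). The log2 fold change was 1.25 (SE 0.38, limma adjusted p = 0.0165), and 0.99 without Saline 2, Saline 7 and Saline 8 (limma adjusted p = 0.0914). Ang II 5 and Ang II 1 were also the 2 libraries with the lowest Acan of the Ang II group, at 26.6 and 26.8 FPKM. Over that group Pearson's r of Acan with Tnfaip6 was -0.725 (exact permutation p = 0.04, adjusted over 56 pairs 0.19). Spearman's rho was -0.429 (exact permutation p = 0.299, adjusted 0.524), and r was 0.207 without these 2 libraries. In the saline group r was 0.692 (exact permutation p = 0.0608, adjusted 0.218).

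Hyal2 (chr9:107567945-107572779, plus strand), the membrane-anchored hyaluronidase, had 25.7, 30.5 and 55.4 FPKM with saline and 20.4, 27.1 and 32.3 FPKM with Ang II. Saline 7 was the highest, and the ranges overlapped in all but 2 Ang II libraries. Its log2 fold change was -0.29 (SE 0.15, limma adjusted p = 0.144), and it passed under 0 of the 27 alternatives. The log2 ratio of summed synthase transcripts to Hyal2 (each + 1) was -3.42 ± 0.608 with saline and -3.34 ± 0.449 with Ang II (SD, n = 8 each), a difference of 0.08 (exact two-sided permutation test, p = 0.775).

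The order of the FPKM levels changed with treatment. With saline it was Vcan, Hyal2, Cd44, Acan, Hapln1, Has3, Tnfaip6, Hapln3, Has1 and Has2. Neighbours whose ranges did not overlap were Hyal2 above Cd44, Acan above Hapln1, and Hapln3 above Has1. With Ang II it was Acan, Cd44, Vcan, Hyal2, Tnfaip6, Hapln1, Has3, Hapln3, Has1 and Has2, and every pair of neighbours overlapped in range. Acan exceeded Cd44 in 5 of 8 Ang II libraries and Cd44 exceeded Vcan in 4 of 8, so the top 3 places are not separated. The order between genes also depends on the length used: per kilobase of all annotated exons, Hyal2 stood above Vcan in both groups (14.5 against 11.1 with saline, 11.6 against 9.34 with Ang II), and with saline Tnfaip6 (1.62) stood above Has3 (1.26) and Hapln1 (1.23).

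**Figure D4:**
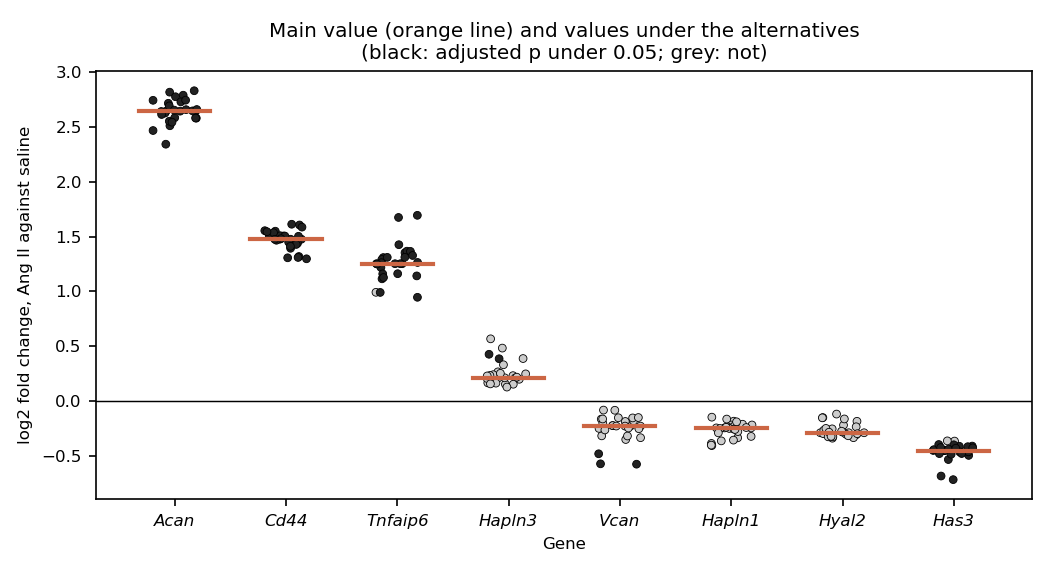
Log2 fold change of the 8 tested genes, Ang II against saline, with the reported value as an orange line and each alternative as a point (black where the adjusted p was under 0.05, grey where it was not). Acan and Cd44 are black throughout, Hapln1 and Hyal2 are grey throughout, and Vcan, Hapln3, Has3 and Tnfaip6 hold points of both kinds.

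Other genes of hyaluronan and hyalectan biology were taken as 8 lists of 51 symbols, of which 38 were tested. In these, 13 genes rose (34.2%) and 3 fell (7.89%), with a median log2 fold change of 0.27, beside 9.54%, 24.9% and -0.12 over all genes tested. Without Saline 7 and Saline 8, 9 rose (Gfpt1, Tlr4, Fbln2 and Ezr lost their calls) and 4 fell (Hyal1 was added). Without Saline 2 as well, 10 rose (Hapln4 was added) and 6 fell (Hyal1, Rdx and Nf2 were added). Of the other receptors, 5 of 6 tested genes rose and 0 fell. Hmmr, a hyaluronan-binding protein of the mitotic spindle, rose from 0.416 ± 0.199 to 5.57 ± 1.62 FPKM (SD, n = 8 each; log2 fold change 2.19, limma adjusted p = 5.24e-08). Its saline mean was under 0.5 FPKM, so it passed the filter only through its Ang II libraries. The call was kept under all 27 alternatives, which include a fit with no filter. Layn, the membrane lectin layilin, rose from 18.5 ± 3.09 to 36.6 ± 7.61 FPKM (0.94, 3.64e-05). In both, no Ang II library overlapped the saline range. Lyve1 (0.66, limma adjusted p = 0.00416), Tlr2 (0.63, 0.00624) and Tlr4 (0.89, 0.038) rose too, the last with 0.50 (limma adjusted p = 0.0855) without Saline 7 and Saline 8, and the scavenger receptor Stab1 did not pass (-0.13, 0.785).

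Enzymes that make the sugar precursors rose in 2 of 6 tested genes and fell in 0 (of all tested genes 9.54% rose and 24.9% fell). Gfpt1, the entry enzyme of the hexosamine pathway, rose from 16.1 ± 5.79 to 25.4 ± 4.92 FPKM (SD, n = 8 each; log2 fold change 0.68, limma adjusted p = 0.0173), a call that was lost without Saline 7 and Saline 8 (0.45, 0.0514). Pgm3, a later enzyme of that pathway, rose from 3.93 ± 1.17 to 7.16 ± 1.24 FPKM (0.75, 0.00166), with 28.3% of its exon length shared with Dop1a. Ugdh, which makes UDP-glucuronic acid, went from 14.7 ± 4.30 to 19.5 ± 3.20 FPKM and did not pass (0.43, limma adjusted p = 0.0632). Of the other breakdown genes 1 of 6 rose, the lysosomal glucuronidase Gusb, from 36.4 ± 6.72 to 54.1 ± 10.9 FPKM (0.56, limma adjusted p = 0.00394). Hyal4 and Spam1 were listed at 0 in every library.

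In the list that holds the heavy-chain genes, Itih4 and Itih3 fell, out of 4 tested genes, and 0 rose. Of all tested genes 24.9% fell and 9.54% rose. Itih4 fell from 109.7 ± 22.1 to 26.2 ± 7.48 FPKM (SD, n = 8 each; log2 fold change -2.04, limma adjusted p = 1.31e-07). Itih3 fell from 9.65 ± 2.40 to 4.05 ± 1.01 FPKM (-1.07, 4.62e-05). In both genes every Ang II library lay under every saline library, as in 5.62% of all tested genes. Itih2, another heavy chain, went from 22.97 ± 9.59 to 35.9 ± 11.8 FPKM and did not pass (0.68, limma adjusted p = 0.0515).

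Of the ADAMTS proteases that cut hyalectans, 1 of 5 tested genes fell and 0 rose, beside 24.9% and 9.54% of all tested genes. Adamts15 fell from 30.9 ± 8.85 to 2.59 ± 0.498 FPKM (SD, n = 8 each; log2 fold change -3.11, limma adjusted p = 2.46e-09), with every Ang II library under every saline library. The most abundant of them, Adamts1, was at 147.6 ± 32.8 and 169 ± 49.5 FPKM (0.18, limma adjusted p = 0.466), and Adamts5, a known aggrecanase, at 3.59 ± 0.985 and 2.63 ± 0.534 FPKM (-0.32, 0.0939). Matrix proteins that bind hyalectans rose in 3 of 5 genes. The glycoprotein tenascin-C, Tnc, rose from 29.3 ± 6.61 to 111.6 ± 16.4 FPKM (1.90, limma adjusted p = 3.85e-08). The microfibril protein Fbn1 rose from 27.4 ± 9.31 to 81.1 ± 23.4 FPKM (1.55, 3.42e-05), and fibulin-2, Fbln2, rose from 148.9 ± 72.9 to 298 ± 141 FPKM (1.05, 0.0333; 0.76 and 0.0813 without Saline 7 and Saline 8).

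Proteins that tie the Cd44 tail to the actin cortex rose in 2 of 4 genes, beside 9.54% of all tested genes. Moesin, Msn, rose from 201.5 ± 78.1 to 363 ± 67.3 FPKM (SD, n = 8 each; log2 fold change 0.93, limma adjusted p = 0.00583). Ezrin, Ezr, rose from 4.94 ± 2.11 to 7.97 ± 2.14 FPKM (0.67, 0.0463) but lost its call in 14 of 27 alternatives. Rdx and Nf2 did not pass with all 16 libraries. The other hyalectans and link proteins were near absent, with 0 of 2 tested genes changed. Ncan and Hapln2 lay under the filter, and Bcan and Hapln4 averaged between 0.884 and 1.17 FPKM in each group.

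**Figure D5:**
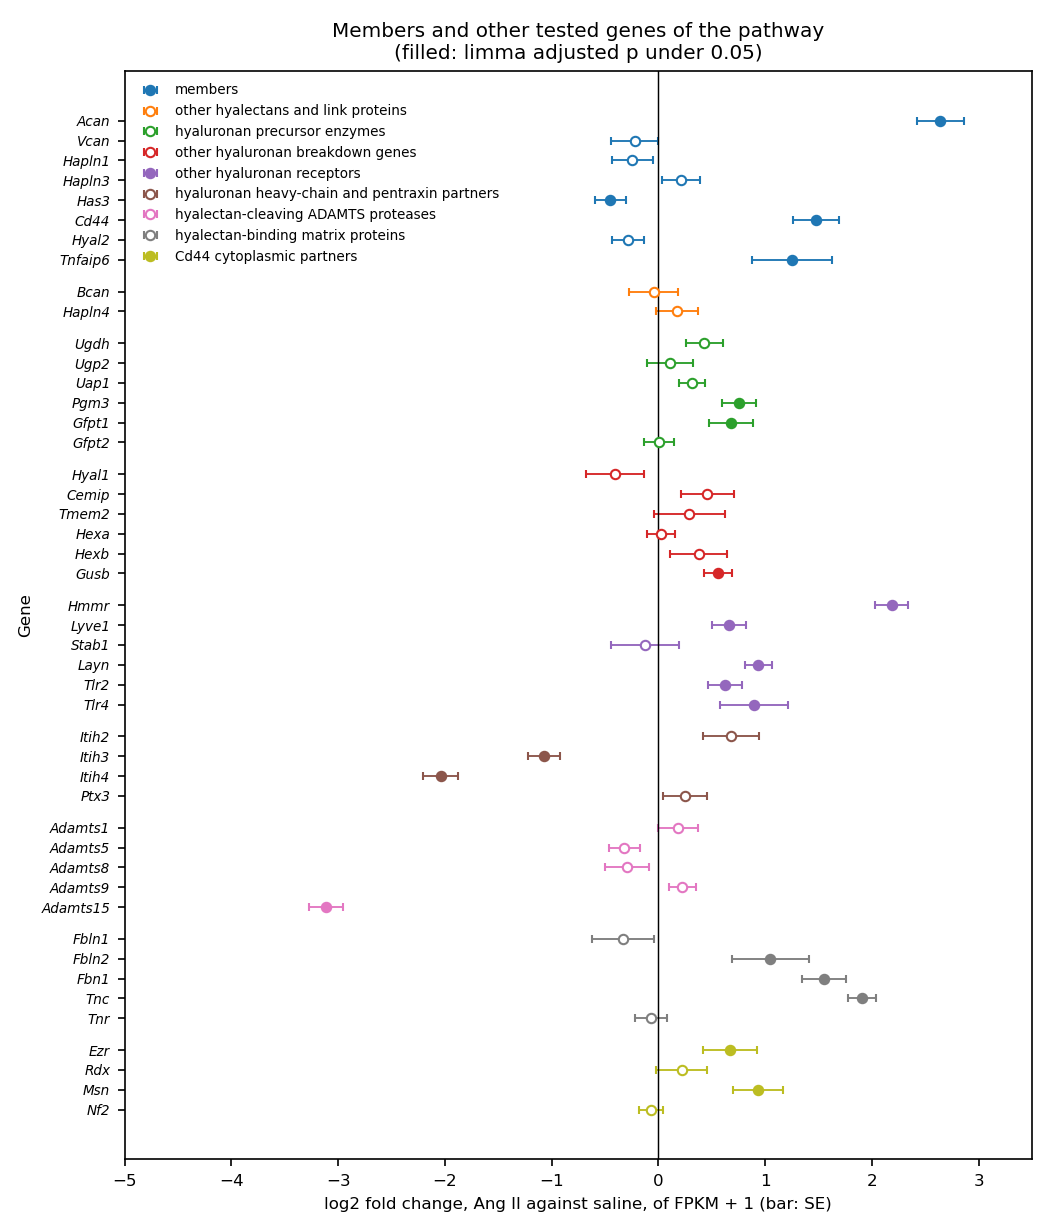
Log2 fold change (horizontal axis, Ang II against saline, of FPKM + 1) with its SE for the 8 tested members and 38 other genes, coloured by list; filled points passed an adjusted p of 0.05. Receptors and matrix-binding proteins lie mostly to the right, and Itih3, Itih4 and Adamts15 lie far to the left at -1.07, -2.04 and -3.11.

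Markers of other cell types were read beside these results. Aggrecan is best known from cartilage. Of the chondrocyte markers 2 of 8 tested genes rose and 0 fell, beside 9.54% and 24.9% of all tested genes. The 2 were the transcription factor Sox9 (log2 fold change 0.83, limma adjusted p = 0.00426) and Chad, which encodes chondroadherin (2.27, 0.00148). Sox5, another transcription factor of the list, did not pass (-0.26, limma adjusted p = 0.225). It was called lower without Saline 7 and Saline 8, and again with Saline 2 left out as well. The summed level of the 14 markers was 55.9 to 96.3 FPKM with saline and 66.9 to 188 FPKM with Ang II. Comp, the most abundant of the 14, was at 47.0 ± 15.0 and 76.8 ± 38.2 FPKM (SD, n = 8 each). It did not pass (log2 fold change 0.61, limma adjusted p = 0.0689). Col2a1, the cartilage collagen, did not pass (0.693 ± 0.637 and 1.68 ± 2.52 FPKM, SD, n = 8 each; 0.38, limma adjusted p = 0.409). Matn1, Matn3 and Cnmd were at 0 in 13, 12 and 14 of the 16 libraries. Their part in the level of Acan was not tested.

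Cd44 and Tnfaip6 are also expressed by leukocytes. Of the macrophage and monocyte markers 3 of 10 rose (Adgre1, Csf1r and Itgam) and 0 fell, beside 9.54% and 24.9% of all tested genes. Itgam lost its call in 19 of 27 alternatives, among them without Saline 7 and Saline 8. With a saline mean of 0.358 FPKM, Itgam passed the filter only through its Ang II libraries, and 68.7% of its exon length is shared with Gm49368. The summed level of the list was 21.6 to 644 FPKM with saline and 64.1 to 689 FPKM with Ang II. The sum was higher in the Ang II library in 8 of 8 comparisons of libraries with the same number. Nothing in the labels ties equal numbers together, so this count is no paired test. Saline 1, with the 644, had 13.9 FPKM of Cd44 and 2.00 FPKM of Tnfaip6, both within the range of the other saline libraries. Ang II 5, with the lowest sum of its group at 64.1, had the highest Tnfaip6 and 36.5 FPKM of Cd44. Ang II 1, with the 689, had the highest Cd44 at 52.5 FPKM and the highest Has1 and Has2. The part of these cells in the levels of Cd44, Tnfaip6, Has1 and Has2 was not tested. Of fibroblast markers 2 of 8 fell (Col14a1 and Clec3b), of endothelial markers 1 of 7 (Pecam1) and of adipocyte markers 1 of 7 (Fabp4). Of all tested genes 24.9% fell, and 0 rose in each of these lists. Pecam1 lost its call in 11 of 27 alternatives, among them median ratio scaling (limma adjusted p = 0.0805). Without Saline 2, Saline 7 and Saline 8, the endothelial marker Kdr was called higher. With all 16 libraries Kdr did not pass (log2 fold change 0.34, limma adjusted p = 0.162). Its saline mean there was 0.469 FPKM, so it passed the filter only through its Ang II libraries. The adipocyte marker Fabp4 lost its call as lower without Saline 2, Saline 7 and Saline 8 (log2 fold change -0.86, limma adjusted p = 0.0694). The summed level of the adipocyte markers was 13.7 to 276 FPKM with saline, highest in Saline 8, and 6.49 to 122 FPKM with Ang II. The part of adipocytes in the levels of the members was not tested. Of lymphatic endothelial markers 0 of 2 tested genes changed, Ccl21a was at 0 throughout, and 0 of 5 mesothelial markers passed the filter.

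The genes whose levels varied most like each member were found among 10888 protein-coding genes by Pearson's r over the 16 libraries after the mean of each group was subtracted. Since they are the highest of so many, r is a description. For Acan they were Ikbkg (r 0.868), Smo (0.858) and Gldn (0.852), and for Vcan Etv1 (0.933), Rab31 (0.931) and Serpini1 (0.922). For Cd44 they were Emp1 (0.925), Trim16 (0.902) and Slfn5 (0.899), and for Tnfaip6 Dusp10 (0.915), Serpina1e (0.885) and Myc (0.871). For Has3 the second was Adamts15 (0.791), after Fam214a (0.856) and before Zkscan7 (0.788). Hapln1 varied with Smim8 (0.884), Fundc1 (0.881) and Ccng1 (0.875), and Hyal2 with Cldn15 (0.894), Ramp2 (0.868) and Slc9a3r2 (0.867). All points share the same libraries, including Saline 7 and Saline 8.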

How the data were processed

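Aortas without adventitia from 16 samples, 8 with saline and 8 with Ang II, were measured by mRNA sequencing. The authors deposited 1 table of FPKM for 54532 genes. Per the submitters' processing notes, reads were placed on GRCm38 (mm10). The aligner, the counter and the use of strand are not stated in the sources used here. Groups and replicate numbers came from the sample titles. Of the gene IDs, 54495 were found in GENCODE M21, which gave positions and exon lengths. Reads were recovered from the steps of the FPKM: 95.8% to 96.3% of values above 0 per library came out whole within 0.02 of a read, for 31322 of 31409 genes. Low counts limit the precision of Has1, Has2 and Hapln3, and limits from 3 reads cover counting error only.

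Values were taken as log2(FPKM + 1) and the 15007 genes averaging at least 0.5 FPKM were fitted with limma 3.58.1 (trend option, R 4.3.3). Its two-sided p-values were adjusted by the Benjamini-Hochberg method and read at 0.05. On this scale the fold change of low genes is understated. The limma fit was tested on simulated data with known changes. Ratios, sums and single low genes had exact permutation tests (Python 3.11.15, scipy 1.17.1). The alternatives were no filter or one at 1 FPKM, a pseudocount of 0.1, quantile and median ratio scaling, a replicate block, sample weights, voom on recovered reads, a rank-sum test, and leaving out libraries. The members, lists and rules were chosen with earlier results of these data known. The tests of Has1 and Has2 alone were added after seeing that they lay under the filter. Named were all members, up to 2 higher and 2 lower genes per list by smallest adjusted p with a mean of at least 1 FPKM, those needed for counts of 5 or fewer, the 3 genes most like each member, and neighbouring genes. Named outside this rule, after their values were seen, were Ugdh, Itih2, Adamts1, Adamts4, Adamts5, Itih5, Stab1, Hyal1, Hyal4, Spam1, Ncan, Bcan, Hapln2, Hapln4, Rdx, Nf2, Col2a1, Col9a1, Comp, Sox5 and Kdr.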

Additional observations from a re-analysis of the deposited data

Results flagged for a closer look

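Within each group of 8 libraries, the gap between the most extreme library and the next was compared with the whole range. Of 28 such groups, 10 held a library whose gap was over the critical value of Dixon's test. Chance alone gives about 1 in 20 for normally distributed values, which FPKM off the log scale need not be. Has2 was at 0 in 10 of the 16 libraries, where a library above 0 is easily flagged. The number of flagged groups can therefore not be set against that rate. The flagged groups are also not independent, since the summed levels and shares are made from the same genes.

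Ang II 1 was the library far above its group for Has1 (1.08 FPKM), Has2 (1.09 FPKM), the summed synthase level (2.06 on the log2 scale of the sum + 1) and the Has2 share of that sum (34.4%). In the saline group, Saline 1 was far above the others for Has2 (0.0974 FPKM, from 7 reads) and for the Has2 share (8.18%). Saline 1 and Ang II 1 also had the highest summed macrophage and monocyte markers of their groups, at 644 and 689 FPKM; the part of those cells in Has2 was not tested.

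Saline 8 was far under the other saline libraries for Hapln1 (0.631 FPKM) and far above them for Hapln3 (2.07 FPKM). Saline 7 was far above the saline group for Hyal2 (55.4 FPKM). Ang II 5 was far above its group for Tnfaip6 (25.1 FPKM); without Ang II 5 the gene still passed (limma adjusted p = 0.0177).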

How the results depend on the processing

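The calls of Acan, Cd44, Hapln1 and Hyal2 held under all 27 alternatives, and the Acan to Vcan log2 ratio under all 21. Members that rose numbered 3 in every single left-out library (3 to 3) and those that fell 1 (1 to 1), but the number that fell was 0 with no filter, 0 with median ratio scaling, 2 with sample weights and 2 without Saline 7 and Saline 8. Other genes of the axis that fell numbered 3, and 5 with sample weights and 6 without Saline 2, Saline 7 and Saline 8; leaving out 1 library gave 10 to 15 higher and 3 to 4 lower. Over all genes, 1431 higher and 3741 lower became 2270 and 2374 with quantile normalization and 2235 and 2113 with median ratio scaling, and leaving out 1 library gave 1170 to 1533 and 3239 to 3896. Leaving out 1 library moved the difference in summed synthase level between -0.296 and -0.153, the lowest without Ang II 1 (exact permutation p = 0.0493), that in Has2 share between -0.0755 and 5.12 percentage points, that in the Acan to Vcan log2 ratio between 2.76 and 2.97, and that in the synthase to Hyal2 log2 ratio between -0.0489 and 0.175. The last reversed sign with a pseudocount of 0.1 (-0.00422) and without Saline 1 (-0.0225), Saline 5 (-0.00687), Saline 7 (-0.0404) or Ang II 1 (-0.0489). The cause of these changes was not tested.

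Both groups carry the replicate numbers 1 to 8, and nothing in the labels ties equal numbers together. Deviations of same-numbered libraries correlated at -0.246 to 0.385, and 2 of 8 libraries correlated best with their own number, so the numbers were not taken as pairs. The summed macrophage and monocyte markers did follow the numbers in part, with the Ang II library higher in 8 of 8 same-numbered comparisons and libraries 1 and 2 the highest of both groups. The summed lymphatic endothelial markers were also higher in 8 of 8, and the smooth muscle and adipocyte markers in 1 of 8 each. For the remaining marker lists the count was 3 to 6 of 8. With the replicate number as a block, 1414 genes were higher and 3531 lower, and the 8 tested members kept their calls (Acan 2.64, Cd44 1.48, Has3 -0.45 and Tnfaip6 1.25).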

Other observations

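Some low genes of the axis lay under the filter and were not tested. Adamts4, an aggrecanase, was at a mean FPKM of 0.142 ± 0.0925 in the saline group and 0.444 ± 0.174 in the Ang II group (SD, n = 8 each), and 6 of 8 Ang II libraries exceeded the highest saline value. Itih5, another heavy-chain gene, was at 0.514 ± 0.288 and 0.254 ± 0.0773 FPKM with overlapping ranges. Col9a1, a cartilage collagen, was at 0.258 ± 0.130 and 0.471 ± 0.342 FPKM, and 4 of 8 Ang II libraries exceeded the highest saline value. These genes were chosen after their values were seen.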
